A study of Mus musculus with 9 samples.

Results

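The transcripts described here belong to 8 mouse genes for making cholesterol and moving it within cells, namely Hmgcs1, Idi1, Fdps, Fdft1, Sqle, Lss, Tm7sf2 and Stard4. They were found as every probe set, the set of short probes by which an array reads a transcript, that the platform annotation assigns to exactly 1 of these symbols. That gave 19 of the 22626 probe sets tested, and 8 of the 12393 genes measured. Hmgcs1 and Fdft1 had 4 probe sets each, Lss had 3, Idi1, Fdps and Stard4 had 2 each, and Sqle and Tm7sf2 had 1 each. The genes were grouped by function, as genes of cholesterol synthesis and uptake. None of the 8 encodes a lipoprotein receptor, and the label of uptake rests on Stard4 alone, which moves sterol between membranes inside the cell, so the group is called cholesterol synthesis and transport genes below.

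Total RNA of whole mouse embryos at 9.5 days post coitum was read on 9 arrays in 5 genotype groups. The Notch1 null group (Notch1tm1Con/tm1Con) had 2 arrays, the Notch1 het group (Notch1tm1Con/+) 1 array, the Dll3 null group (Dll3neo/neo) 2, the Dll3 het group (Dll3neo/+) 2 and the wild-type group (+/+) 2. Notch1 encodes a receptor of the Notch pathway, and Dll3 a divergent ligand needed for the segmentation of the body axis. A strain, C57BL/6J, is named in the label of only 1 Notch1 null array. The labels do not say whether an array holds a single embryo or pooled embryos, nor whether replicates came from separate litters, so p-values rest on the spread from array to array alone, and part of that spread may be technical.

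Cells make cholesterol from acetyl-CoA. The mevalonate part of the pathway yields isoprenoid units, which are joined into farnesyl pyrophosphate and then squalene, and squalene is oxidised and folded into the sterol ring, which further enzymes trim to cholesterol. Most genes of the pathway carry sterol regulatory elements in their promoters and are switched on together by the transcription factor SREBP when sterol is scarce; the oxidation of squalene and several later steps consume molecular oxygen. The embryo needs cholesterol for its membranes and for the covalent modification of hedgehog proteins.

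The values are deposited ratios, in which each probe set appears divided by a number of its own. For 18 of the 19 probe sets the median over the 9 arrays was exactly 1. A ratio of 1 is then that probe set's own median and says nothing of how abundant the transcript was. Ratios of different probe sets are therefore not compared in level. Group differences are log2 fold changes with the standard error of a limma fit over all 9 arrays, p-values were adjusted by Benjamini-Hochberg over the 22626 probe sets, and a probe set with an adjusted p under 0.05 counts as called. Values from whole embryos cannot tell fewer cells of a type from less RNA per cell.

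Promoter sequences of the RefSeq table, 250 bases before to 50 bases after the start of the gene, are given for 4 of the 8 genes (build GRCm38.p6). Stard4 was left out beforehand, so its promoter is not reported here. The sequences are shown because the pathway is known for its shared control through the promoter. Another reason is that 17 of the 19 fold changes lay below zero in the Notch1 het array, against 49.2% of all probe sets. The Hmgcs1 promoter lies at chr13:119690101-119690400 on the plus strand, that of Idi1 at chr13:8885356-8885655 on the plus strand, that of Lss at chr10:76531355-76531654 on the plus strand and that of Tm7sf2 at chr19:6067801-6068100 on the minus strand. Capitals mark matches to the sterol regulatory element CACNCCAC and to the CCAAT box, read as CCAAT or, from the other strand, as ATTGG.
Hmgcs1: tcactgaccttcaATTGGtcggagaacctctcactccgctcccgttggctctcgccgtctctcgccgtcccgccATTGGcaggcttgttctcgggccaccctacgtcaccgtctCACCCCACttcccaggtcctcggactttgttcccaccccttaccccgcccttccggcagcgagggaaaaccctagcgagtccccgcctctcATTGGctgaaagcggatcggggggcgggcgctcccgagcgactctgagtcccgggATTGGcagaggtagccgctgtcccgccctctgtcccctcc
Idi1: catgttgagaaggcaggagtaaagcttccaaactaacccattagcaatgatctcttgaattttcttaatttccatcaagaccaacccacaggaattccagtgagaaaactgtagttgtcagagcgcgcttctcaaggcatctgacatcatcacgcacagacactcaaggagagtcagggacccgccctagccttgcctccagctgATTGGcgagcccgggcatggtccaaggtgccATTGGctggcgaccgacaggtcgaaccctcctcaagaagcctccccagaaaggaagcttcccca
Lss: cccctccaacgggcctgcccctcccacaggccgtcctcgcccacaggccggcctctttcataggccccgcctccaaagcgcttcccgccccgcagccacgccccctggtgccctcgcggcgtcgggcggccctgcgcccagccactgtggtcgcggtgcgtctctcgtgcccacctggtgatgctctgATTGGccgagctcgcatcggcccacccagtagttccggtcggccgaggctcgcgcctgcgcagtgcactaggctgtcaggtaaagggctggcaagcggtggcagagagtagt
Tm7sf2: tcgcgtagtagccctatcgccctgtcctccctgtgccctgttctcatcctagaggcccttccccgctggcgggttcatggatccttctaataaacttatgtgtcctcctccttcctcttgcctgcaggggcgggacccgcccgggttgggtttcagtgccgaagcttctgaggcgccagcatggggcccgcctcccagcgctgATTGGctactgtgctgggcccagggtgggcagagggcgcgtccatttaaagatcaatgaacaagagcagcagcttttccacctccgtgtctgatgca
The sterol regulatory element was matched in the Hmgcs1 window alone of these 4, once, with its first base at position -136 from the start. Searched on both strands, the same letters occur in 6.24% of the 32851 mouse promoters in the table. A CCAAT box was matched in each of the 4 windows, 4 times in Hmgcs1, 2 times in Idi1 and once each in Lss and Tm7sf2, against 37.4% of all promoters with a match. A match begins at position -45 in Hmgcs1 and Idi1, at -47 in Tm7sf2 and at -62 in Lss. The GC box GGGCGG, not capitalised, was found 3 times in Hmgcs1, once in Idi1, and 2 times each in Lss and Tm7sf2, against 35.7% of all promoters. The TATA box TATAAA was found in none of the 4 windows, against 13.6% of all promoters. These windows were 65.7% G and C in Hmgcs1, 52.3% in Idi1, 71.0% in Lss and 60.3% in Tm7sf2. No match overlapped another, and a match describes the sequence only.

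Across the 9 arrays, the Notch1 het array had the lowest mean log2 ratio over the 19 probe sets, -0.34. It was the lowest of the 9 for 8 of the 19, against 12.5% of all probe sets. Tm7sf2 and 1 of the 2 Stard4 probe sets were called lower there than in wild type and lower than in Notch1 null embryos, by 2.03-fold and 1.63-fold against wild type, where 1.77% of all probe sets were called lower. Against wild type, 0 of the 19 were called by limma in Notch1 null embryos, where 9.45% of all probe sets were called, 0 in Dll3 null, where 0.0884% were, and 0 in Dll3 het, where 0.486% were. The plot of ratios by array shows all 19 probe sets.

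**Figure D1:**
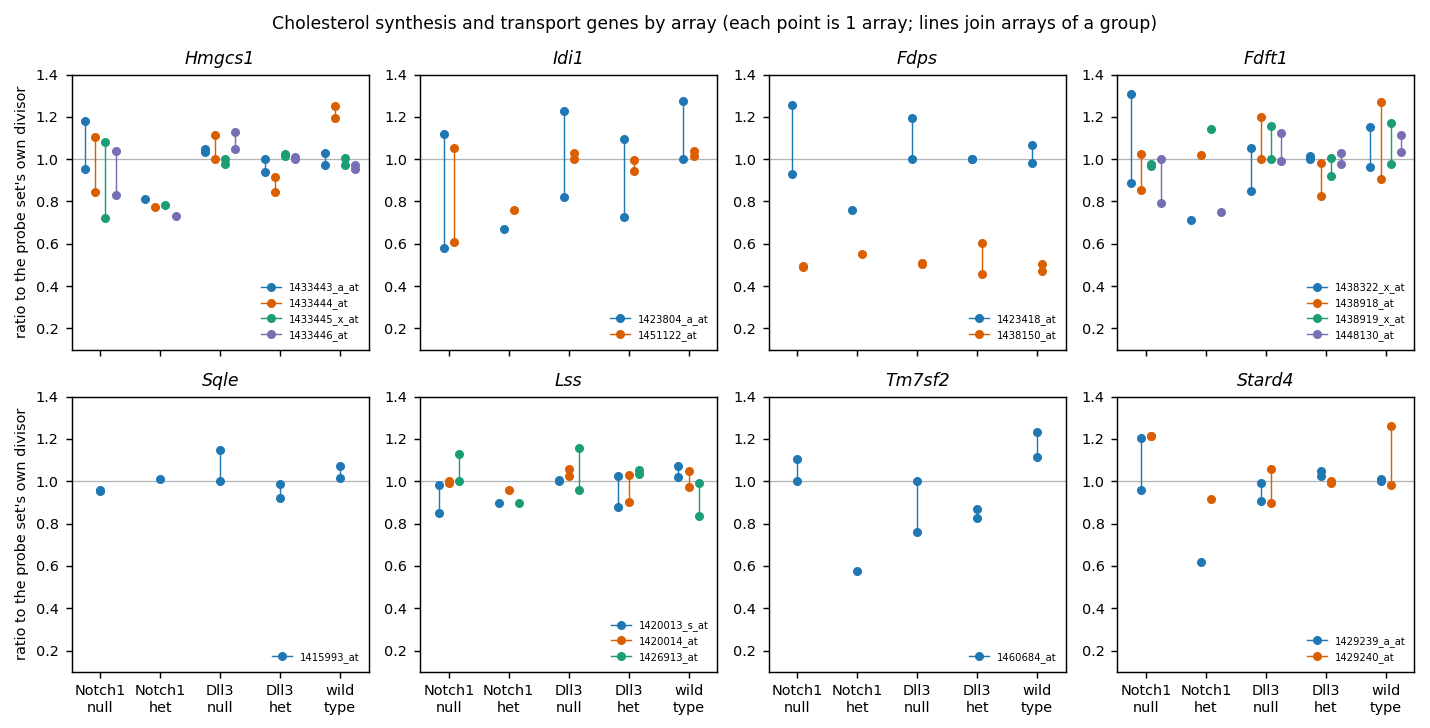
Deposited ratios (y axis, ratio to the probe set's own divisor) of the 19 probe sets of the 8 genes, by genotype group (x axis). Each point is 1 array, lines join the arrays of a group and colours separate the probe sets of a gene. The Notch1 het array is the lowest point for Tm7sf2 at 0.578 and for Stard4 probe set 1429239_a_at at 0.617.

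Hmgcs1 encodes the synthase that makes HMG-CoA early in the mevalonate part of the pathway. Probe set 1433444_at had ratios of 1.10 and 0.843 in Notch1 null embryos, 0.772 in the Notch1 het array, 1.12 and 1 in Dll3 null, 0.844 and 0.914 in Dll3 het, and 1.25 and 1.19 in wild type. Both wild-type arrays were thus above all other arrays. Its fold change against wild type was -0.66 ± 0.17 on the log2 scale in Notch1 het (95% interval -1.05 to -0.28), with an adjusted p of 0.0759. It was -0.48 ± 0.14 in Dll3 het (adjusted p = 0.144) and -0.34 ± 0.14 in Notch1 null embryos (adjusted p = 0.174). None of these passed the threshold. Probe set 1433446_at had 1.04 and 0.832 in Notch1 null, 0.731 in Notch1 het, 1.05 and 1.13 in Dll3 null, 1 and 1.01 in Dll3 het, and 0.953 and 0.971 in wild type. Probe set 1433443_a_at had 1.18 and 0.952 in Notch1 null, 0.81 in Notch1 het, 1.03 and 1.05 in Dll3 null, 1 and 0.937 in Dll3 het, and 1.03 and 0.974 in wild type. For these, as for 1433444_at, the Notch1 het array was the lowest of the 9. For the fourth, 1433445_x_at, it was second lowest at 0.783, above the second Notch1 null array at 0.72, while the other Notch1 null array had 1.08 and the 6 Dll3 and wild-type arrays lay between 0.974 and 1.02. Probe sets with the ending x may bind transcripts of other genes.

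Idi1 encodes the isomerase that sets the balance of the isoprenoid units. Probe set 1423804_a_at had 1.12 and 0.581 in Notch1 null embryos, 0.67 in Notch1 het, 1.23 and 0.823 in Dll3 null, 1.10 and 0.726 in Dll3 het, and 1.28 and 1 in wild type. Within every replicated group the array numbered 1 was the higher. The ratio differed 1.93-fold between the Notch1 null replicates, a gap reached by 0.217% of all 22626 probe sets in that group. Probe set 1451122_at had 1.05 and 0.609 in Notch1 null embryos, 0.762 in Notch1 het, 1 and 1.03 in Dll3 null, 0.997 and 0.942 in Dll3 het, and 1.01 and 1.04 in wild type. Here the second Notch1 null array and the Notch1 het array were low and the 7 others lay from 0.942 to 1.05. With that spread the fold changes of Notch1 null embryos against wild type were -0.49 ± 0.32 (adjusted p = 0.411) and -0.36 ± 0.21 (adjusted p = 0.343). Without the first Notch1 null array, 1451122_at was called lower in Notch1 null embryos than in wild type, at -0.75 with an adjusted p of 0.0252, and than in Dll3 null embryos, at -0.74 with an adjusted p of 0.0358. Over all alternatives these adjusted p ran from 0.0252 to 0.949 and from 0.0358 to 0.952. Without the second Notch1 null array the same fold changes were 0.04 and 0.05, and that of 1423804_a_at against wild type was -0.01, so the direction rests on the second array. Each such fit assumes that the remaining Notch1 null array varies like those of the other groups. With embryo sex as a covariate 1423804_a_at was called lower in Notch1 null than in wild-type embryos, at -0.84 with an adjusted p of 0.0235, in a range from 0.0235 to 0.993 over the alternatives. In the Notch1 het array the fold changes were -0.75 ± 0.39 (adjusted p = 0.329) and -0.43 ± 0.25 (adjusted p = 0.404). With replicate number as a block, 1423804_a_at was called lower there, at -1.06 with an adjusted p of 0.0373, in a range from 0.0373 to 0.628 over the alternatives.

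Fdps encodes the synthase of farnesyl pyrophosphate, the branch point to sterols, prenylated proteins and dolichol. Probe set 1423418_at had 1.25 and 0.931 in Notch1 null, 0.761 in Notch1 het, 1.19 and 1 in Dll3 null, 1 and 0.999 in Dll3 het, and 0.984 and 1.07 in wild type. Against wild type the Notch1 het array, the lowest of the 9, was at -0.43 ± 0.19, with an adjusted p of 0.248. The other probe set, 1438150_at, is the 1 member whose median was not 1, at about 0.504, which is read here as division by a floor given to dim probe sets. It ranged from 0.456 to 0.603, with the Notch1 het array at 0.553, above both wild-type arrays. In Notch1 het the Fdps probe sets thus gave differences of opposite sign.

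Fdft1 encodes squalene synthase, the committed step to sterols. Probe set 1448130_at had 1 and 0.795 in Notch1 null, 0.748 in Notch1 het, 1.12 and 0.992 in Dll3 null, 0.979 and 1.03 in Dll3 het, and 1.03 and 1.12 in wild type. Against wild type the Notch1 het array was at -0.52 ± 0.16, with an interval of -0.89 to -0.16 and an adjusted p of 0.125. Probe set 1438322_x_at had 1.31 and 0.888 in Notch1 null, 0.714 in Notch1 het, 1.05 and 0.85 in Dll3 null, 1 and 1.02 in Dll3 het, and 0.962 and 1.15 in wild type. Again the Notch1 het array was the lowest. The remaining probe sets did not share this order. Probe set 1438918_at had 1.02 in Notch1 het, between its wild-type values of 0.904 and 1.27, and 1438919_x_at had 1.14 there, between 0.975 and 1.17. All 4 had a lower ratio in the second than in the first Notch1 null array.

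Sqle encodes squalene epoxidase, an oxygen-consuming and often rate-limiting enzyme. It had 0.953 and 0.961 in Notch1 null embryos, 1.01 in Notch1 het, 1.15 and 1 in Dll3 null, 0.921 and 0.985 in Dll3 het, and 1.01 and 1.07 in wild type. It was the 1 probe set of the 19 whose ratio was not lower in the second Notch1 null array than in the first. Its fold change in Notch1 null against wild type was -0.12 ± 0.11, with a 95% interval of -0.37 to 0.12 on the log2 scale. Lss, the cyclase that folds oxidised squalene into lanosterol, had narrow ranges. Its probe set 1426913_at had 1.13 and 1 in Notch1 null, 0.897 in Notch1 het, 1.16 and 0.96 in Dll3 null, 1.03 and 1.05 in Dll3 het, and 0.835 and 0.99 in wild type. Probe set 1420014_at stayed between 0.901 and 1.06 and 1420013_s_at between 0.85 and 1.07 on all arrays. The Lss fold changes of Notch1 null and Notch1 het embryos against wild type ran from -0.23 to 0.23 on the log2 scale.

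Tm7sf2 encodes a sterol reductase late in the pathway, in the membrane of the endoplasmic reticulum. It had ratios of 1.11 and 1 in Notch1 null embryos, 0.578 in the Notch1 het array, 1 and 0.759 in Dll3 null, 0.87 and 0.825 in Dll3 het, and 1.23 and 1.11 in wild type. The Notch1 het array was below every other array. The Dll3 arrays and the Notch1 null arrays were also below both wild-type arrays, the latter narrowly, with 1.106 in a Notch1 null array against 1.113 in wild type. Against wild type the Notch1 het array was lower by 2.03-fold, at -1.02 ± 0.17 (95% interval -1.41 to -0.63), with an adjusted p of 0.0237. Notch1 null embryos were higher than the Notch1 het array by 1.82-fold, at 0.87 ± 0.17, with an adjusted p of 0.0458. The differences of Dll3 null and Dll3 het embryos from wild type, -0.43 ± 0.14 (adjusted p = 0.349) and -0.47 ± 0.14 (adjusted p = 0.154), did not pass. Whether the Notch1 het difference from wild type exceeded that of Dll3 het was tested after these values were seen; it was -0.55 ± 0.17 with an adjusted p of 0.15, so a difference between the heterozygotes was not shown.

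Stard4 encodes a soluble protein that carries cholesterol between membranes. Probe set 1429239_a_at had 1.20 and 0.957 in Notch1 null, 0.617 in Notch1 het, 0.909 and 0.99 in Dll3 null, 1.03 and 1.05 in Dll3 het, and 1.01 and 1 in wild type. The Notch1 het array lay apart below the other 8, which spanned 0.909 to 1.20. Against wild type it was lower by 1.63-fold, at -0.70 ± 0.15 (95% interval -1.05 to -0.36), with an adjusted p of 0.0477, and Notch1 null embryos exceeded it by 1.74-fold, at 0.80 ± 0.15, with an adjusted p of 0.0416. Its difference from the Dll3 het group was -0.75 ± 0.15 with an adjusted p of 0.0576. Probe set 1429240_at had 1.22 and 1.21 in Notch1 null, 0.917 in Notch1 het, 1.06 and 0.899 in Dll3 null, 0.992 and 1 in Dll3 het, and 0.983 and 1.26 in wild type. It had the same sign in the Notch1 het array, -0.28 ± 0.17, and was not called (adjusted p = 0.413). Averaged over both probe sets, Stard4 was at -0.49 ± 0.13 in Notch1 het against wild type and was not called, with an adjusted p of 0.0734 over 12393 genes, while Tm7sf2 was, with 0.0194.

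Of the 19 probe sets, the Notch1 het array had 2 called lower and 0 called higher, where 2.76% of all probe sets were called in either direction and 1.77% lower. With limma's unadjusted p under 0.05 the count was 7, all lower, against 10% of all probe sets. On this array 17 of 19 fold changes were below zero, against 49.2% of all, with a median of -0.34 against 0.01 over all probe sets. Its ratio lay below both wild-type arrays for 15 of the 19, against 38.8% of all probe sets. It was the lowest of the 9 arrays for 8 of 19, against 12.5% of all probe sets, and the highest for none, against 15.8%. Since several probe sets read the same transcript, these are not separate observations, and all rest on 1 array. With embryo sex as a covariate the Notch1 het fold changes were further from zero. Tm7sf2 was at -1.22 against -1.02 without it, and Stard4 1429239_a_at at -0.76 against -0.70. The median over the 19 was then -0.46, with 17 below zero. Without wild-type replicate 1 or 2 the adjusted p of Tm7sf2 was 0.0946 or 0.0933, without either Notch1 null array 0.0502, and with embryo sex as a covariate 0.0577, and Stard4 was not called in any of these; its adjusted p was 0.139, 0.154, 0.0502 and 0.127 in them. Over all alternatives the adjusted p ran from 0.0168 to 0.135 for Tm7sf2 and from 0.0447 to 0.154 for Stard4.

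In Notch1 null embryos against wild type, 0 of the 19 were called by limma, where 9.45% of all probe sets were, and 1 had an unadjusted p under 0.05, against 23.6%. The median fold change was -0.12, against -0.03 over all probe sets, and 12 of 19 were below zero, against 55.7% of all. Not passing the test does not show equality: the 95% intervals reached from 0.25 to 0.71 on the log2 scale on each side of the estimate. The Notch1 null replicates differed more in these genes than in most. The first was above the second for 18 of 19 probe sets, against 53.9% of all probe sets, and the median gap was 1.24-fold, against 1.08-fold over all. In the other groups the median gap over the 19 was 1.13-fold in Dll3 null, 1.06-fold in Dll3 het and 1.08-fold in wild type. The yolk sac and liver endoderm markers, 26 probe sets, had mean log2 ratios of 0.30 and -0.73 in the Notch1 null replicates, but they also differed between replicates in Dll3 null (0.06 and -0.40), Dll3 het (-0.51 and 0.09) and wild type (-0.29 and 0.63). Those Notch1 null replicates also had different sex-linked expression patterns, female in the first and male in the second. The part of either in the replicate gap was not tested.

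Against the Notch1 het array, Notch1 null embryos had 2 of the 19 called higher and 0 lower, where 1.78% of all probe sets were called in either direction and 0.853% of all were called higher. With an unadjusted p under 0.05 the count was 7 higher, against 7.11% of all. Of the 19 fold changes 15 were above zero and 4 below, against 56.8% of all probe sets below zero. Their median was 0.25, against -0.03 over all probe sets. This comparison and that of Notch1 het with wild type share the single Notch1 het array, so a low value on it moves both. The change between Notch1 null and het was set against that between Dll3 null and het after these values were seen; it differed by 0.83 ± 0.22 for Tm7sf2 (adjusted p = 0.173) and by 0.93 ± 0.20 for Stard4 1429239_a_at (adjusted p = 0.117), and 0.208% of all probe sets were called.

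The Dll3 groups held no called probe set of the 8 genes in the following 4 comparisons. Dll3 null embryos against wild type had 0 of 19 called by limma, where 0.0884% of all probe sets were called, and 1 with an unadjusted p under 0.05, Tm7sf2, against 10.2% of all. Their median was 0.00, against 0.01. Dll3 het embryos had 0 of 19 called, against 0.486% of all, and 2 with an unadjusted p under 0.05, Tm7sf2 and Hmgcs1 1433444_at, against 16% of all, with a median of -0.08 against -0.01. Dll3 null against Dll3 het had 0 called of the 19 and 0% of all probe sets, and 0 with an unadjusted p under 0.05, against 5.31% of all. Notch1 null against Dll3 null embryos had 0 called, against 5.74% of all, and 1 with an unadjusted p under 0.05, Stard4 1429240_at at 0.32 ± 0.14 (adjusted p = 0.229), against 20.5% of all. All comparisons with wild type share its 2 arrays. The plot of fold changes against wild type shows the intervals.

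**Figure D2:**
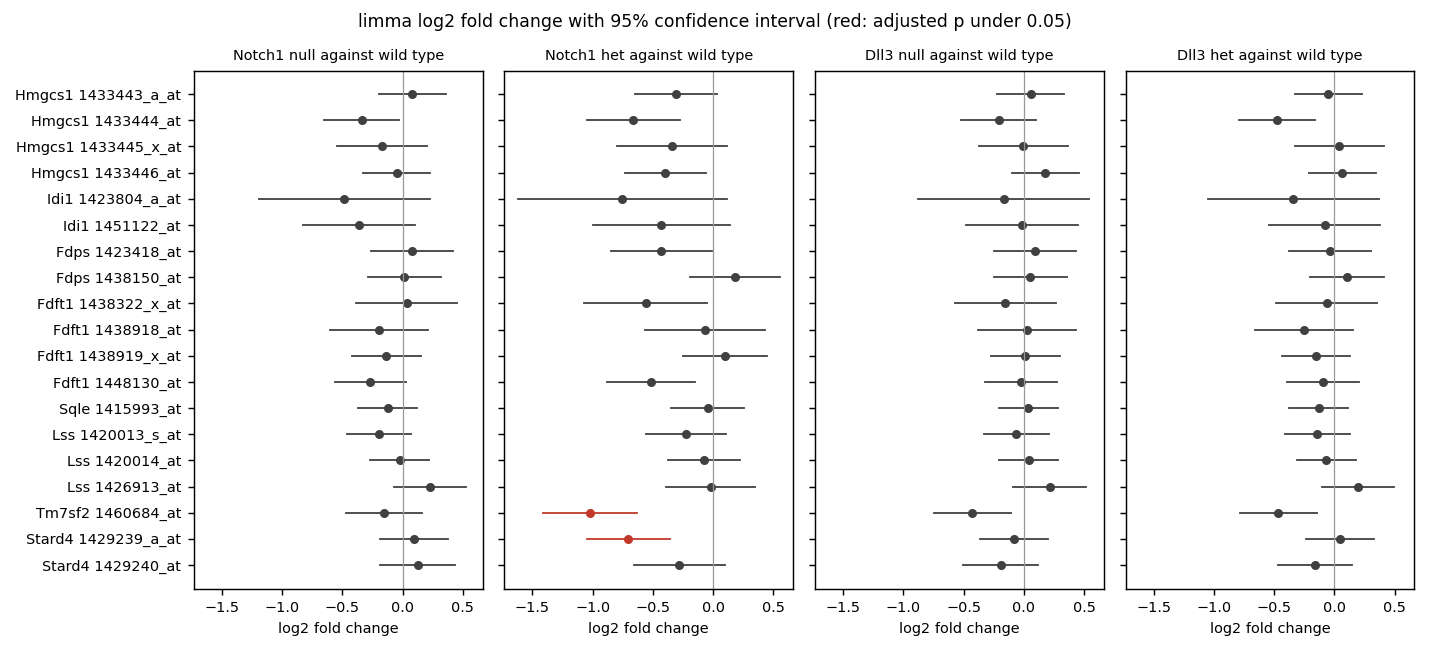
Log2 fold change against wild type (x axis) of the 19 probe sets (y axis) in 4 genotypes; points are limma estimates, lines 95% confidence intervals and red marks an adjusted p under 0.05. The 2 red points are Tm7sf2 at -1.02 and Stard4 1429239_a_at at -0.70, both in Notch1 het; no point is red in Notch1 null, Dll3 null or Dll3 het.

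The genes were then set beside other genes of the pathway. Of 13 further sterol synthesis enzymes listed, 10 were measured by 16 probe sets. In Notch1 null embryos 1 of the 16 was called lower and 0 higher, where 9.45% of all probe sets were called. The called one was Mvk, mevalonate kinase, at -0.47 ± 0.11 for probe set 1418052_at (adjusted p = 0.0342), while its other probe set was at -0.15 (adjusted p = 0.488). Next by p was the sterol reductase Hsd17b7, with probe sets of opposite sign at -0.24 ± 0.11 (adjusted p = 0.215) and 0.22 ± 0.11 (adjusted p = 0.27). Then came the decarboxylase Mvd at -0.36 ± 0.16 (adjusted p = 0.219), with its other probe set at -0.15 (adjusted p = 0.566). Dhcr7, a late sterol reductase, followed at -0.25 ± 0.13 (adjusted p = 0.28). In Notch1 het against wild type 0 were called by limma, where 2.76% of all were. Of these 16 fold changes 14 were below zero, against 49.2% of all, with a median of -0.32 against 0.01. The lowest of them, Pmvk, which phosphorylates mevalonate further and was singled out after its value was seen, was at -0.58 ± 0.17 (adjusted p = 0.109), and Dhcr7 was at -0.45 ± 0.16 (adjusted p = 0.162). In the Notch1 het array the mean log2 ratio was -0.34 over the 19 probe sets of the 8 genes and -0.23 over these 16, the lowest of the 9 arrays for each. In Dll3 null against wild type 0 of the 16 were called, where 0.0884% of all were, with a median of -0.01. In Dll3 het 0 were called, where 0.486% of all were, with a median of 0.01.

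Among genes of sterol uptake, 3 receptors were higher in Notch1 null embryos than in wild type. Of 16 listed genes 13 were measured by 25 probe sets, of which 6 were called higher and 0 lower against wild type, where 9.45% of all probe sets were called; their median was 0.27, against -0.03. Vldlr, a lipoprotein receptor that also responds to low oxygen, was higher for 2 of its 4 probe sets, at 2.53 ± 0.19 (1417900_a_at, adjusted p = 0.000547) and 2.40 ± 0.13 (1434465_x_at, adjusted p = 0.000119), and the others were at 0.31 each (adjusted p = 0.154 and 0.329). Lrp2, the endocytic receptor megalin, was higher for both probe sets, at 0.92 ± 0.11 (adjusted p = 0.0028) and 0.96 ± 0.18 (adjusted p = 0.0135). Scarb1, the receptor of high-density lipoprotein, was higher for 2 of 3, at 0.82 ± 0.16 (adjusted p = 0.0154) and 0.68 ± 0.14 (adjusted p = 0.0164). Lrp1, a large receptor for many ligands, was at 0.40 ± 0.13 (adjusted p = 0.0858). In Notch1 het only Lrp2 1427133_s_at was called, at 0.76 ± 0.14 (adjusted p = 0.0268), where 2.76% of all probe sets were. The 25 had a median of -0.03 there. In Dll3 null and Dll3 het 0 of 25 were called against wild type, where 0.0884% and 0.486% of all were. Against Notch1 het embryos, Notch1 null embryos had both of those Vldlr probe sets called higher, at 2.57 and 2.46, where 0.853% of all were called higher.

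The transcripts of SREBP and its partners were mostly not called. Of 12 listed genes 6 were measured by 12 probe sets. In Notch1 null and Notch1 het embryos 0 were called against wild type, where 9.45% and 2.76% of all probe sets were. Srebf2, the SREBP gene most tied to sterol synthesis, had probe sets at 0.34 ± 0.10 (adjusted p = 0.0635) and -0.05 ± 0.11 in Notch1 null, and at 0.38 ± 0.12 (adjusted p = 0.131) and 0.42 ± 0.13 (adjusted p = 0.128) in Notch1 het. In Dll3 het embryos its probe set 1426744_at was called higher than in wild type, at 0.59 ± 0.10 (adjusted p = 0.0417), while 1452174_at was at 0.11 (adjusted p = 0.672). Insig1, an inhibitor of SREBP processing, was not analysed here. Of 25 probe sets for 12 genes of fatty acid synthesis, 1 was called in Notch1 null and 1 in Notch1 het, against the same shares. The desaturase gene Scd2 was higher in Notch1 null embryos, at 0.48 ± 0.11 (1415823_at, adjusted p = 0.0255). The elongase gene Elovl6 was lower in Notch1 het, at -0.72 ± 0.15 (1417403_at, adjusted p = 0.0426). The other probe sets of Scd2 were at 0.37 (adjusted p = 0.0938) and 0.24 (adjusted p = 0.537) in Notch1 null, and the other of Elovl6 at 0.03 (adjusted p = 0.945) in Notch1 het. The plot of the lists shows every probe set of these groups.

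**Figure D3:**
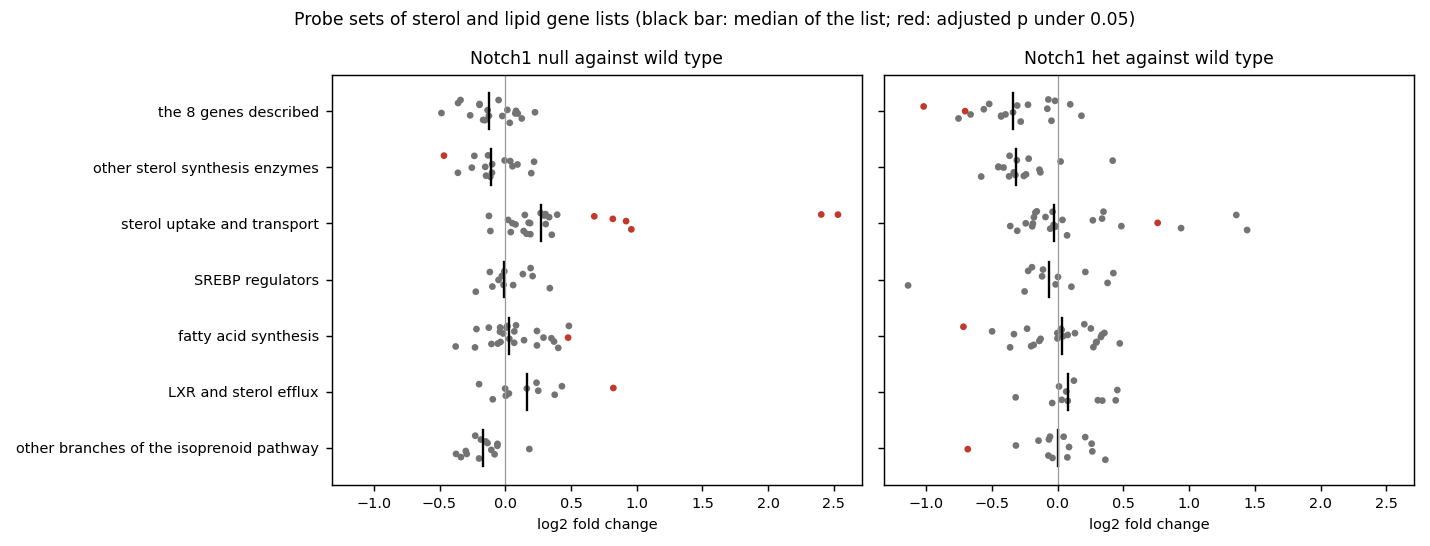
Log2 fold change against wild type (x axis) of Notch1 null and Notch1 het embryos for the probe sets of 7 lists (y axis, points spread vertically at random); black bars are list medians and red points have an adjusted p under 0.05. The 8 genes lie around -0.12 in Notch1 null and -0.34 in Notch1 het, and the red points of sterol uptake in Notch1 null reach 2.53.

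The genes nearest in pattern to the mean profile of the 8, by root mean square difference of log2 ratios over the 9 arrays after each profile was centred on its own mean, were Tubb4b at 0.0374, Sdcbp at 0.0433, Mvd at 0.0487, Lmbr1l at 0.0506 and Birc6 at 0.054, against a median of 0.203 over all probe sets. Mvd encodes the decarboxylase that completes the mevalonate part of the pathway, and its probe set 1448663_s_at had 1.03 and 0.876 in Notch1 null, 0.815 in Notch1 het, 1.13 and 0.945 in Dll3 null, 0.968 and 1.01 in Dll3 het, and 1 and 1.10 in wild type. Tubb4b is a tubulin gene and Sdcbp encodes the adaptor syntenin. As these genes were picked for likeness to that profile, their order of arrays is no separate observation. Among the 19 probe sets the distance to that mean ran from 0.0878 for Hmgcs1 1433443_a_at to 0.291 for Idi1 1423804_a_at.

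Other features of the same arrays were as follows. Markers of neural progenitors and neurons were called lower for 13 of 22 probe sets in Notch1 null and 9 of 22 in Notch1 het against wild type, where 9.45% and 2.76% of all probe sets were called in either direction. The genes called in both were Dcx, Fabp7, Hes5, a target of Notch signalling, Neurog2, Stmn2 and Tubb3, and Pax6 and Sox3 were called in Notch1 null embryos. Genes of the low oxygen response were called higher for 18 of 21 in Notch1 null, with a median of 1.21. They were called higher for 4 of 21 in Notch1 het, to be read against the same shares. In Dll3 null and in Dll3 het 2 of 21 were called higher, where 0.0884% and 0.486% of all were called in either direction. The mean log2 ratio of this list was -0.03 in Notch1 het, from -0.07 to 0.07 in the Dll3 arrays, and -0.18 and -0.31 in wild type. Ddit4, Adm, Bnip3, Egln3, Pdk1, Pgk1, Slc2a1, Slc2a3 and Vegfa had called probe sets in Notch1 null, and in Notch1 het the glucose transporter genes Slc2a1 and Slc2a3 did. Of the yolk sac and liver endoderm markers 1 of 26 was called in Notch1 null, Alb at -0.56 ± 0.15 (adjusted p = 0.0465), and 0 in Notch1 het. Summed as mean log2 ratios, the neural list was at -0.51 and -0.56 in Notch1 null, -0.30 in Notch1 het, from 0.01 to 0.10 in the 4 Dll3 arrays, and 0.29 and 0.21 in wild type. Primitive red cell markers had 0 of 16 called in each. For the actin control, the deposited ratio of the 5′ probe sets was divided by that of the 3′ probe sets. The quotient was lowest in the Notch1 het array, 0.893, where the others lay from 0.924 to 1.08. For the Gapdh control the quotient was 0.956 in the Notch1 het array and lowest in a wild-type array, 0.896. As each probe set appears divided by a number of its own, these quotients compare arrays only. They do not give the signal of 5′ over 3′ on an array. The spike-in control dap had ratios of 5.26 and 2.62 in Notch1 null, 1 in Notch1 het, from 0.36 to 0.403 in the 4 Dll3 arrays, and 6.61 and 9.2 in wild type, so the Notch1 het array lay below the wild-type and Notch1 null arrays and above the Dll3 arrays. The spike-in control cre did not separate the groups, with 0.893 in Notch1 het, from 0.846 to 1.22 in the Dll3 arrays and from 0.958 to 1.28 in the Notch1 null and wild-type arrays. By sex-linked transcripts the Notch1 het array was female and both wild-type arrays male. The part of these features in the low values of the Notch1 het array was not tested, other than by the sex covariate above.

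**Figure D4:**
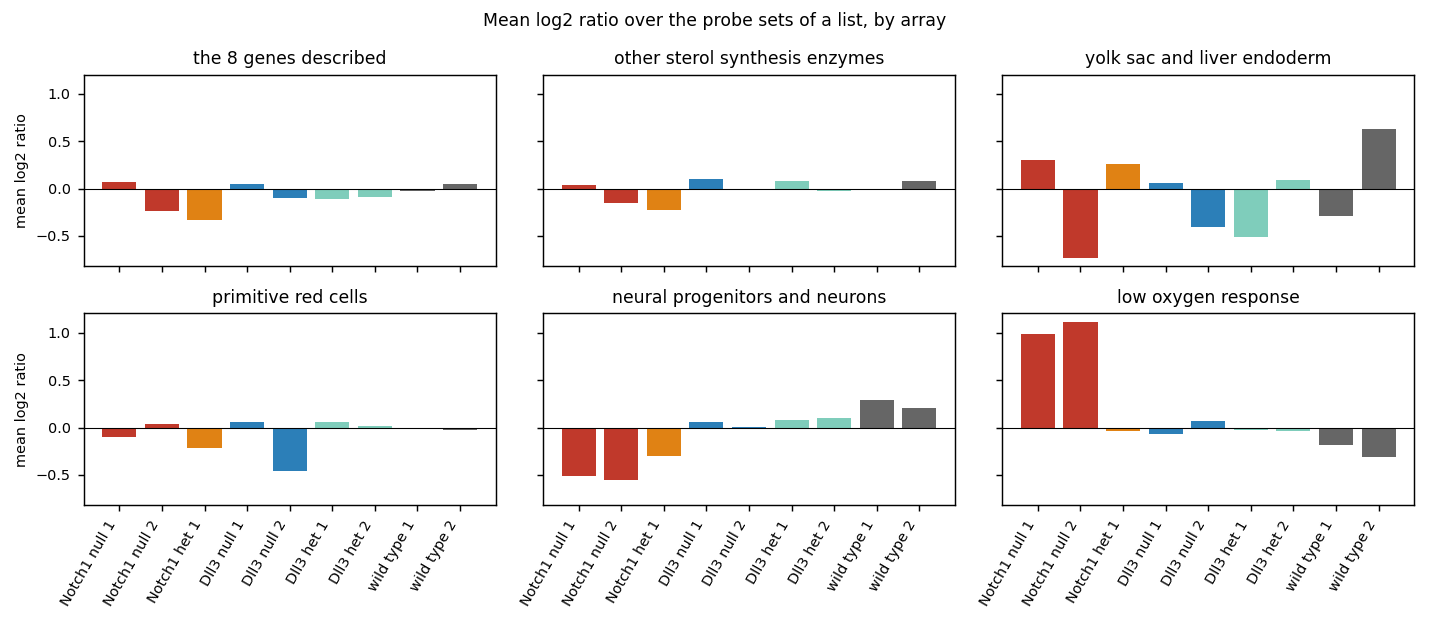
Mean log2 ratio (y axis) over the probe sets of each list, by array (x axis, coloured by genotype group); each bar is 1 array. The 8 genes and the other sterol synthesis enzymes are lowest in the Notch1 het array, at -0.34 and -0.23, while the low oxygen response is high in the Notch1 null arrays, at 0.99 and 1.11.

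The targeted genes checked no label. For probe set 1418633_at, Notch1 transcript ratios were 1.47 and 1.69 in Notch1 null embryos and 0.916 and 1.01 in wild type. They were 1.63-fold higher in Notch1 null embryos (adjusted p = 0.0138). The other Notch1 probe set, 1418634_at, was at 0.60 ± 0.23 and was not called (adjusted p = 0.142). Dll3 was at -0.27 ± 0.12 in Dll3 null against wild type (adjusted p = 0.486). The sources used here do not say where the probes lie relative to the targeted sequence.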

How the data were processed

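Total RNA of whole embryos was read on 9 Affymetrix arrays. RMA, which corrects background, normalises between arrays and summarises probes, is named per the submitters' processing notes, with no version. What the authors deposited is a linear ratio per probe set and array. Its median over arrays equals 1 for 87.5% of probe sets and exceeds 1 for 0, so each probe set appears divided by a number of its own; no source used here says so. Ratios were taken to log2 with no pseudocount and no filter on level. Signal over background is unknown, and the number of arrays limits precision.

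The 64 control probe sets were left out, and the other 22626 were fitted in limma (version 3.58.1, under R 4.3.3) by lmFit and eBayes, with 1 mean per genotype, 4 residual and 5.42 prior degrees of freedom. Benjamini-Hochberg adjustment was made separately in 7 comparisons. The single Notch1 het array is assumed to vary like the others. The procedure was tested on simulated data. Of the probe sets fitted, 20380 carry 1 symbol, 691 several and 1555 none; a RefSeq table (GRCm38.p6) changed 0 symbols. No source names a genome build for the files.

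The members, lists and tests were chosen with earlier results of these data known. All member probe sets are named; from other lists, genes called in a comparison described and up to 4 of lowest p in Notch1 null against wild type. Some items are not reported here. Replicate differences correlated between groups at -0.10 to 0.16, so replicate numbers were not treated as pairs. Alternatives were 2 scalings, fewer groups in the fit, a block for replicate number, robust and weighted fits, embryo sex as a covariate, averages per gene, a threshold of 0.1 and leaving out each array. A fit without the Dll3 arrays and tests between the heterozygotes were added after seeing the data.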

Additional observations from a re-analysis of the deposited data

How the results depend on the processing

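The alternatives bear mainly on the Notch1 het array. Its count of member probe sets called against wild type, 2, was 0 after quantile normalisation, 0 with only both groups fitted, 0 with embryo sex as a covariate, 1 with only the wild-type and Notch1 arrays fitted, 1 with probe sets averaged per gene, and 0 to 1 when an array was left out. The count of Notch1 null against Notch1 het, 2, was 0 after quantile normalisation, 0 with only both groups fitted, 0 with the sex covariate, 0 with only the wild-type and Notch1 arrays, and 0 to 1 when an array was left out. Leaving out an array of another group left these fold changes as they were and took away residual degrees of freedom. Notch1 null against wild type, 0, became 1 with the sex covariate and 0 to 1 when an array was left out; Notch1 null against Dll3 null, 0, gave 0 to 1. The Dll3 counts against wild type and against each other stayed at 0 in every setting. With replicate number as a block, Notch1 null against Notch1 het had 1 call; Notch1 het against wild type kept a count of 2, Tm7sf2 (adjusted p = 0.0227) and Idi1 1423804_a_at (-1.06, adjusted p = 0.0373), while Stard4 had 0.0729. Tm7sf2 in Notch1 het against wild type was called in 10 of 17 alternatives, with fold changes from -1.22 to -0.94 and adjusted p from 0.0168 to 0.135. Stard4 1429239_a_at was called in 4 of 17, from -0.76 to -0.66, with adjusted p from 0.0447 to 0.154. Against Notch1 null the counts were 7 and 4 of 17. Each of these counts includes the threshold of 0.1, which is the main fit again and so had to be called. Over all probe sets, calls in Notch1 het against wild type, 624, ranged from 0 without wild-type replicate 1 to 1477 at an adjusted p under 0.1; those in Notch1 null against wild type, 2139, from 306 to 3308; those in Notch1 null against Notch1 het, 403, from 0 to 1004; those in Notch1 null against Dll3 null, 1298, from 9 to 2317. Other causes of these shifts were not tested. Idi1 1451122_at in Notch1 null embryos, called only without Notch1 null replicate 1, was at 0.04 against wild type and 0.05 against Dll3 null without replicate 2. With 2 arrays or 1 in a group the intervals given were wide, so a probe set that was not called is not shown to be unchanged.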

Other observations

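Branches that leave the sterol pathway were described from lists as well. The other isoprenoid branches serve protein prenylation, dolichol and ubiquinone. Of 13 listed genes 9 were measured, by 14 probe sets. The listed ubiquinone genes Pdss1, Pdss2 and Coq2 were not among them, so the values below do not cover that branch. In Notch1 null embryos against wild type 0 of the 14 were called by limma, where 9.45% of all probe sets were. Of the 14, 13 were below zero, against 55.7% of all, with a median of -0.17 against -0.03. In the Notch1 het array 7 of 14 were below zero, against 49.2% of all, with a median of 0.00. There 1 of the 14 was called, where 2.76% of all were. It was a probe set of Dhdds, a subunit of the enzyme that builds the dolichol chain. Dhdds probe set 1450654_a_at was at -0.68 ± 0.12 (adjusted p = 0.0261), and the others at -0.07 (adjusted p = 0.87) and 0.09 (adjusted p = 0.9). Of 11 probe sets for 8 genes of LXR and sterol efflux, 1 was called in Notch1 null embryos, where 9.45% of all were. That was Abcg1, an exporter of sterol, higher at 0.82 ± 0.16 (adjusted p = 0.0132). In Notch1 het Abcg1 was at 0.44 ± 0.19 (adjusted p = 0.242). The difference between these genotypes for Abcg1 was 0.38 ± 0.19, with an adjusted p of 0.347.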
